A study of Mus musculus with 23 samples.

Results

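The mitochondrial ribosomal protein genes were taken from the deposited expression table by their symbols, as every gene whose name starts with Mrpl or Mrps followed by a digit. They numbered 77 of the 24029 genes in the table, 48 named for the large subunit (Mrpl) and 29 for the small subunit (Mrps), and none of the 77 was listed at 0 in any library. The RNA was that of C3H10T1/2, a line of mouse mesenchymal stem cells of the C3H strain. All cultures received 8.3 nM BMP7 for 3 days, and day 0 RNA was taken before differentiation, as pre-adipocytes. Day 7 RNA came from cells given 5 µM DEX, 0.5 mM IBMX, 0.12 µg/ml insulin, 1 µM Rosi and 1 nM T3 up to day 2, then insulin, Rosi and T3 alone until day 7, as mature adipocytes. Each day was sequenced once by a standard poly(A)-selected procedure and once by TELP, a library construction method, under the label N9, and day 7 also as TELP libraries labelled N9_ss and T18. What N9, ss and T18 stand for is not given in the labels. Each of these 6 groups is 1 library, so no value below carries a replicate error.

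The mitochondrial ribosome translates the few proteins encoded by mitochondrial DNA, all of them membrane subunits of the respiratory chain and the ATP synthase. Its protein components are encoded in the nucleus, made in the cytosol and imported, and are joined in the matrix to ribosomal RNAs transcribed from mitochondrial DNA. Many have counterparts in the bacterial ribosome, while others are found only in mitochondria. White and brown fat cells make more mitochondria as they mature, and brown fat cells more than most cell types.

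The upstream sequences of a few members show what their start regions look like. RefSeq promoters (GRCm38.p6) were found for 68 of the 77 members. They were searched on both strands for 3 short cores whose binding factors are textbook regulators of nuclear mitochondrial genes: GCATGCG for NRF1, CCGGAAG for the ETS family that includes GABP, and GATGGCG for YY1. The 150 bases before the start are shown 5′ to 3′ along the gene, with core matches in capitals. Mrpl12 and Mrpl23 were chosen as the members with the highest and lowest mean difference between days, Mrps22 as the highest small subunit member, Mrpl22 and Mrpl32 for their NRF1 core matches and Mrps11 for its shared start region.
Mrpl12, chr11:120484487-120484636, plus strand: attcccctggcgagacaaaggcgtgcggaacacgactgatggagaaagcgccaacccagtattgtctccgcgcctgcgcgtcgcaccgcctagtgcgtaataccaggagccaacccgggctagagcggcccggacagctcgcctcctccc
Mrps22, chr9:98601680-98601829, minus strand: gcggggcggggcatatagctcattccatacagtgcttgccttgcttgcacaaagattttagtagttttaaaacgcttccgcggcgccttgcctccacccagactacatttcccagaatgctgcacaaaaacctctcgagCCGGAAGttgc
Mrpl22, chr11:58171514-58171663, plus strand: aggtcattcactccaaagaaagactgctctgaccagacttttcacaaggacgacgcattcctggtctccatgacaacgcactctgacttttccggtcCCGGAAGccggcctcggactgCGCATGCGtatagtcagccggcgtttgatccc
Mrpl32, chr13:14613038-14613187, minus strand: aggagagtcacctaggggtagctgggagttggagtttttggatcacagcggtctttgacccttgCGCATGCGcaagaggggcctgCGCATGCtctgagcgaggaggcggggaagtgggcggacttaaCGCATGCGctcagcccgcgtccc
Mrps11, chr7:78782981-78783130, plus strand: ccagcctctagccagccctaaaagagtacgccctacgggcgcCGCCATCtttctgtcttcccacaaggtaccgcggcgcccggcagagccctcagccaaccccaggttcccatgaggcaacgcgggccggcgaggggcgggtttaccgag
Mrpl23, chr7:142532882-142533031, plus strand: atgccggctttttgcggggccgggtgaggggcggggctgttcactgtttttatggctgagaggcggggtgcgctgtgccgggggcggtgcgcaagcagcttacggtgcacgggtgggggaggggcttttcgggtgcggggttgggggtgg

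The ETS core was the most frequent of these 3 cores. In 300-base windows it was found in 24 of 68 member promoters (35.3%), against 19.7% of the 8463 promoters of genes kept for the comparison of days and 9.12% of all 27025 promoters. The NRF1 and YY1 cores were each found in 8 members (11.8%), against 7.16% and 7.18% of kept genes. Any of the 3 was found in 34 of 68 members and 30.4% of kept genes. The SP1 box GGGCGGG was in 42.6% of members and 49.6% of kept genes, and the CCAAT box in 39.7% and 39.6%. Member windows had a median GC content of 58.2%, kept genes 61.3%. These letters are descriptions of the windows and no sites of binding. Members with an ETS core had a median day 7 minus day 0 difference of 0.53 by the standard method and 0.98 by TELP N9, and those without it 0.62 and 0.89. The order of these medians differed between the methods. The AAGGTCA element of the estrogen-related receptors was in 4 member windows (5.88%, kept genes 2.92%), namely those of Mrpl12, Mrpl36, Mrps15 and Mrps21. Members with it had medians of 0.56 and 0.67, and those without it 0.58 and 0.92.

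Steps in the low values gave depths relative to standard day 0 of 0.985 for standard day 7, 1.573 for TELP N9 day 0, 0.382 for N9 day 7, 0.4 for N9_ss and 0.331 for T18. On an approximate absolute scale a gene at 10 RPKM rests on 46.6 to 221 reads per kilobase of effective length. Of 2656 low genes, 2301 stepped by 1 shared ratio in N9_ss and N9, so these libraries hold largely the same reads and are not replicates. The T18 library stood apart, since 10 genes took 79.8% of its RPKM total, against 7.56% to 32.8% in the others. All 7 adipocyte markers, Fabp4, Adipoq, Plin1, Cidec, Lipe, Pparg and Cebpa, were higher at day 7 by both methods, with summed levels of 31.8 and 40.6 RPKM at day 0 and 4613 to 30860 at day 7. The 4 preadipocyte markers summed to 119 to 120 RPKM at day 0 and 5.16 to 74.0 at day 7, with 2 of 4 called lower. Macrophage and leukocyte markers, 4 of 5 in the table, summed to at most 4.70 RPKM, with Ptprc at 0.0421 or less. Endothelial markers summed to 9.54 and 11.3 RPKM at day 0, nearly all of it Tek, and to at most 1.37 at day 7. Muscle markers summed to 11.9 and 36.6 RPKM at day 0 and at most 7.61 at day 7, nearly all of it Acta1, with Myod1, Myog and Myh4 at 0 in both standard libraries and in day 7 N9. Osteoblast markers summed to at most 16.8 RPKM and chondrocyte markers to at most 4.85, both lower at day 7. The part of these cell types in the results was not tested.

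The first comparison asked how the mitochondrial ribosomal protein genes differed between mature adipocytes and pre-adipocytes. Nearly all stood higher at day 7. The median member was at 16.5 RPKM (reads scaled to gene length and to the read total) in standard day 0 and 26.5 in standard day 7, and at 17.4 and 39.7 in the TELP N9 libraries of those days. Their summed RPKM went from 1671 to 2761 in the standard and from 2002 to 3962 in the TELP N9 libraries, which is 0.483% and 0.808%, and 0.489% and 0.678%, of each library's total. As differences of log2(RPKM + 1), a scale that understates the change of low genes, the median member was 0.58 higher in the standard and 0.99 higher in the TELP N9 libraries. Over the 11474 genes that averaged 1 RPKM or more in these 4 libraries, the median difference was -0.17 and -0.46. All 77 members passed that minimum. In RNA from whole cultures, fewer cells of a type and less RNA per cell cannot be told apart, and no label says that the libraries came from separate cultures. A difference above 0 was seen for 76 of 77 members in the standard libraries (36.6% of all genes) and for 73 in TELP N9 (32.7% of all genes), and for 72 in both.

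A difference of at least 1 on this log2 scale, in either direction, was taken as a call. In the standard libraries 13 members were called higher, or 16.9%, where 8.3% of all genes were, and 0 lower, where 6.45% of all genes were. In the TELP N9 libraries 38 members were called higher, or 49.4% against 13.5% of all genes, and 0 lower against 29.8%. By both methods 12 members (15.6%) were called higher and 0 lower, against 7.23% and 5.81% of all genes. These 12 were Mrpl12, Mrpl16, Mrpl20, Mrpl34, Mrpl37, Mrpl38 and Mrpl46 of the large subunit and Mrps2, Mrps18b, Mrps22, Mrps26 and Mrps34 of the small. Mrpl42 alone was called only in the standard libraries, 26 members only in TELP N9 and 38 in neither. Under 3 other scalings of the libraries the same 12 stayed called, with 12, 16 or 18 called in all. The shares of all genes called higher by both methods were then 7.23%, 8.06% and 8.81%. The program limma was fitted to the 4 libraries with library type as a block and 1 residual degree of freedom. At a false discovery rate of 0.05, 0 of 77 members passed, and of all 11474 genes 82 passed as higher and 12 as lower. Few genes of any kind passed. At an unadjusted p under 0.05 limma had 30 members (39.0%) and 26.3% of all genes. Its spread is between library types and not between cultures. With the T18 library in place of N9, 0 members were called higher in TELP, where 2.53% of all genes were. The median difference was then -1.17, and that of all genes -2.06.

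**Figure D1:**
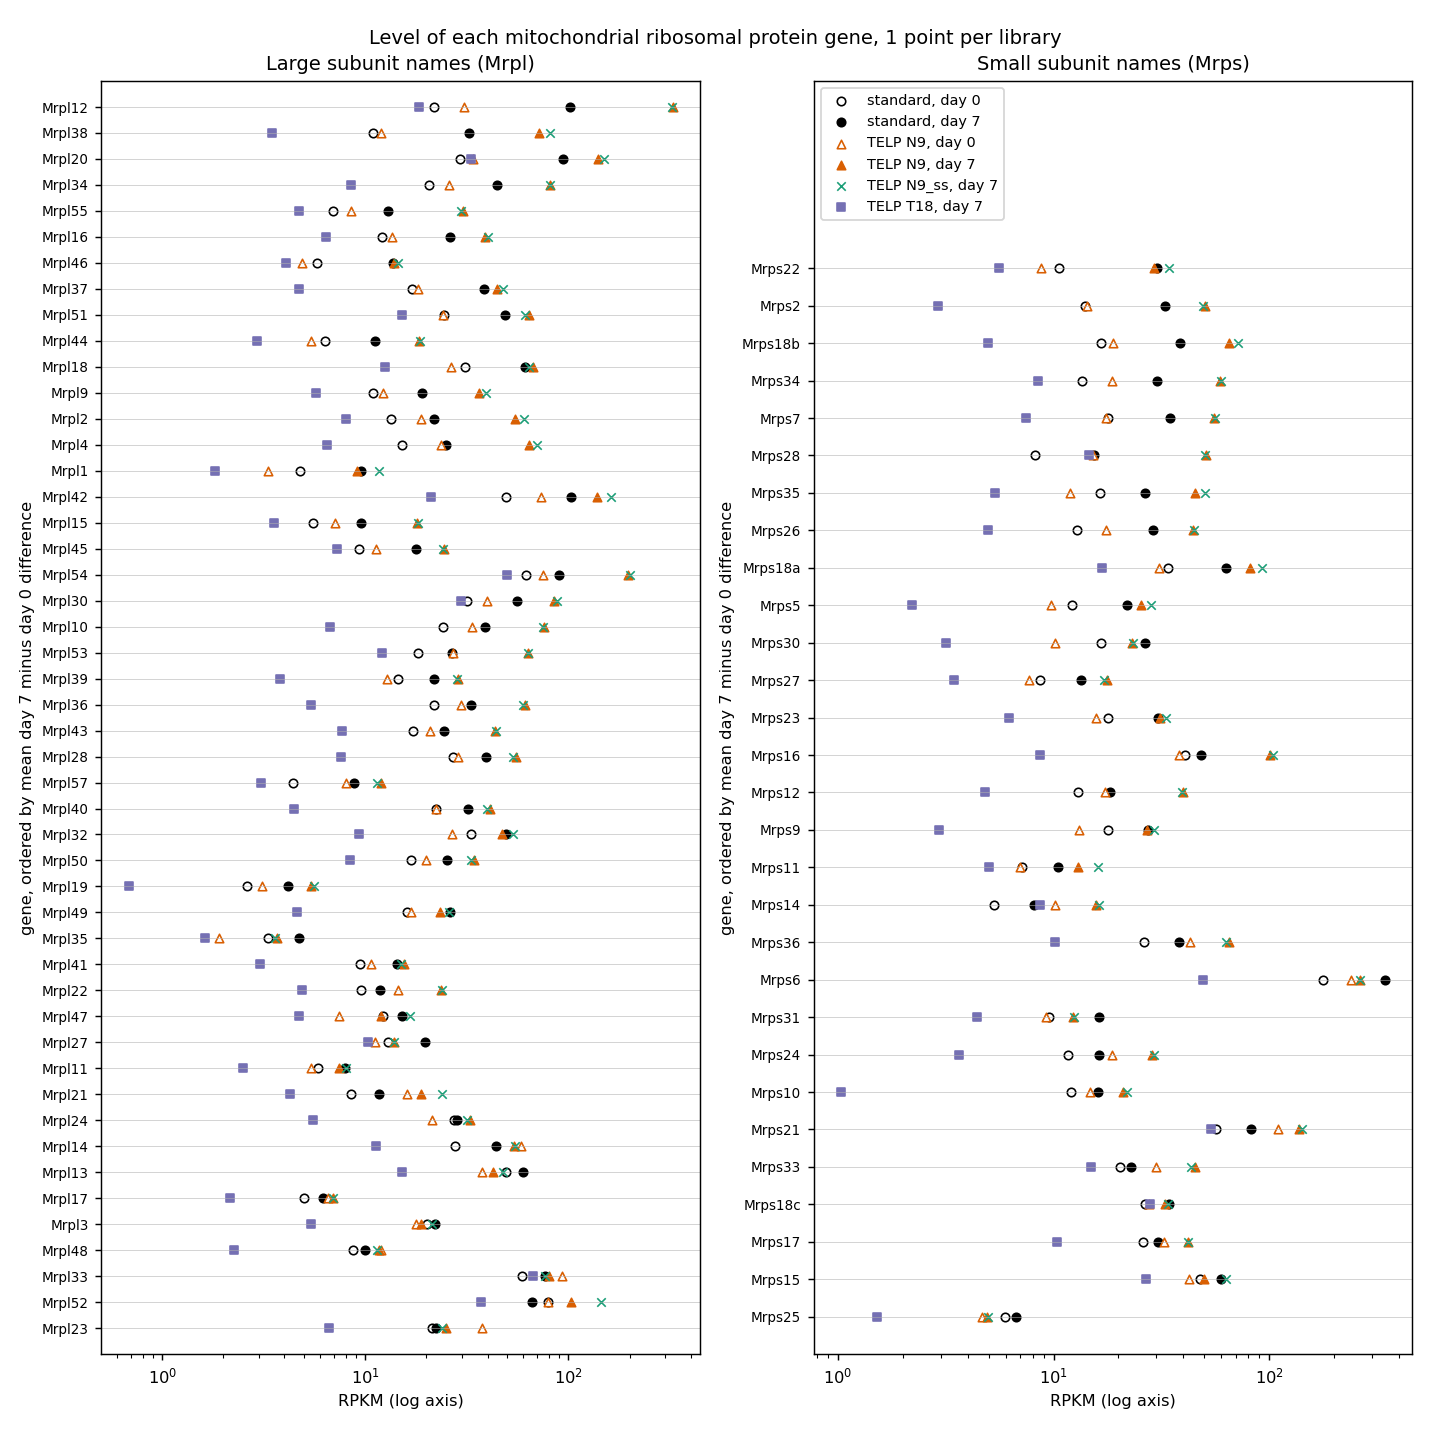
Level of each of the 77 genes (RPKM, log axis) in the 6 libraries, 1 point per library, large subunit names on the left and small on the right, ordered from the highest to the lowest mean difference between days. Day 7 points (filled) lie to the right of the day 0 points (open) of the same library type for most genes, the T18 squares are the lowest point for 72 of 77, and Mrpl12 spans 18.3 to 328 RPKM.

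Mrpl12, which encodes the flexible stalk protein that recruits translation factors and is also known to bind the mitochondrial RNA polymerase, had the highest difference of all members by both methods. It was at 21.9 and 102 RPKM in the standard libraries of day 0 and day 7, at 30.6 and 328 in TELP N9, at 322 in N9_ss and at 18.3 in T18. Apart from T18, every day 7 library was above both day 0 libraries. The differences were 2.17 and 3.38, and limma gave it the smallest adjusted p of any member, 0.0859. At day 0 it ranked 24th and 18th among the members, and at day 7 it was the third in the standard library and the highest in TELP N9. The other stalk proteins did not follow it to that extent. Mrpl10, the base of the stalk, went from 24.2 to 38.7 RPKM in the standard and from 33.7 to 75.9 in TELP N9 (0.66 and 1.15). Mrpl11, which with ribosomal RNA forms the factor-binding region, went from 5.86 to 7.92 and from 5.41 to 7.46 RPKM (0.38 and 0.40).

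Mrpl38, a large subunit protein with no bacterial counterpart, was at 10.9 and 32.5 RPKM in the standard libraries of day 0 and day 7, at 11.9 and 71.6 in TELP N9, at 80.9 in N9_ss and at 3.48 in T18. Its differences were 1.497 and 2.49, the second highest mean among the members. Mrpl20, the counterpart of a bacterial protein needed early in large subunit assembly, was at 29.1 and 93.9 RPKM in the standard libraries, at 33.8 and 140 in TELP N9, at 150 in N9_ss and at 33.0 in T18. It differed by 1.66 and 2.02. For both genes the day 7 values other than T18 lay above both day 0 values.

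In the small subunit the highest mean differences over both methods were those of Mrps22, Mrps2 and Mrps18b, while Mrps35 was the highest in TELP N9 (1.84). Mrps22, found only in mitochondria, was at 10.6 and 30.3 RPKM in the standard libraries, at 8.72 and 29.3 in TELP N9, at 34.2 in N9_ss and at 5.6 in T18, so that both methods gave nearly the same levels at each day (differences 1.43 and 1.64). Mrps2, with a bacterial counterpart, was at 14.1 and 33.0 RPKM in the standard libraries, at 14.3 and 50.6 in TELP N9, at 49.4 in N9_ss and at 2.91 in T18 (1.18 and 1.75). Mrps18b, 1 of 3 mammalian genes related to bacterial S18, was at 16.7 and 38.7 RPKM in the standard libraries, at 18.9 and 65.0 in TELP N9, at 71.5 in N9_ss and at 4.94 in T18 (1.17 and 1.73). Days did not overlap for any of these genes once T18 was set aside.

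At the other end of the order stood 6 members with mean differences from -0.26 to 0.11. Mrpl23 was at 21.3 and 22.2 RPKM in the standard libraries, at 37.7 and 24.98 in TELP N9, at 23.9 in N9_ss and at 6.66 in T18, with differences of 0.06 and -0.57. Mrpl52 was at 79.7 and 66.3 RPKM in the standard libraries, at 79.4 and 103 in TELP N9, at 144 in N9_ss and at 37.3 in T18, and was the only member below 0 in the standard libraries (-0.26, TELP N9 0.37). Mrpl33 was at 59.3 and 76.6 RPKM in the standard libraries, at 93.3 and 80.4 in TELP N9, at 76.8 in N9_ss and at 67.2 in T18 (0.36 and -0.21). Days and methods overlapped for these genes, so no direction can be given for them. Mrpl48 differed by 0.18 and -0.02, Mrpl3 by 0.12 and 0.09 and Mrps25 by 0.15 and 0.06. RefSeq lists pseudogene copies of 6 members, among them Mrpl23 and Mrpl48, and how reads were shared with such copies is not known, so their levels are uncertain. Mrps25, at 5.96 RPKM in standard day 0, overlaps Nr2c2 in RefSeq, at 8.86 in that library, so the level of Mrps25 is uncertain too.

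Large and small subunit members differed between days by about the same amount. The median difference was 0.58 for the 48 large and 0.59 for the 29 small subunit names in the standard libraries, and 0.97 and 0.99 in TELP N9. The order of these medians turned under some settings and is not a result. Of the 12 called by both methods, 7 were large and 5 small, and the 20 highest members by mean difference held 11 large and 9 small. The median level of large over small members was 0.998 and 0.874 in the standard and 1.07 and 0.898 in the TELP N9 libraries at day 0 and day 7. Members listed as mitochondria-specific had medians of 0.57 and 1.05 in the large subunit (17 genes) and of 0.72 and 1.20 in the small (10 genes). Those with bacterial counterparts had 0.58 and 0.86 in the large subunit (30 genes) and 0.51 and 0.70 in the small (16 genes). In the small subunit 4 of 10 mitochondria-specific members and 1 of 16 with bacterial counterparts were called higher by both methods. In the large subunit 3 of 17 and 4 of 30 were, against 7.23% of all genes, which 1 of 16 does not exceed. The 4 of the small subunit include Mrps18b, which is related to a bacterial ribosomal protein. The contrast within the small subunit therefore depends on where that gene is placed and is not a result.

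Of the exit tunnel proteins, which line the path of the new chain towards the inner membrane, 0 of 6 were called by both methods, where 7.23% of all genes were called higher, and the medians were 0.42 and 0.86. Mrpl44 had the highest mean difference of the 6, though Mrpl45 was higher in the standard libraries. Mrpl44 went from 6.32 to 11.1 RPKM in the standard and from 5.39 to 18.5 in the TELP N9 libraries (0.73 and 1.61). In RefSeq Mrpl44 overlaps Wdfy1, at 23.9 RPKM in standard day 0, so its level is uncertain. Mrpl45 differed by 0.86 and 1.05, Mrpl39 by 0.56 and 1.10, Mrpl22 by 0.28 and 0.67 and Mrpl24 by 0.05 and 0.60, with Mrpl23 given above. Mrps12 at the decoding centre, whose bacterial counterpart is where streptomycin resistance arises, went from 13.0 to 18.3 RPKM in the standard and from 17.2 to 39.7 in the TELP N9 libraries (0.47 and 1.16). Of the Mrps names that structures do not place in the small subunit, Mrps18a and Mrps30 are large subunit proteins and Mrps36 belongs to a metabolic enzyme complex. Mrps18a differed by 0.87 and 1.38, Mrps30 by 0.64 and 1.11 and Mrps36 by 0.52 and 0.58, none of them called by both methods.

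Levels varied widely among genes most of whose proteins are present once in each ribosome. In standard day 0 they ran from 2.60 RPKM for Mrpl19 to 178 for Mrps6, and in N9 day 7 from 3.69 for Mrpl35 to 328 for Mrpl12. Among the Mrps names Mrps6 had the highest mean RPKM over the libraries (223), followed by Mrps21 (97.1), Mrps16 (56.7) and Mrps18a (53.2). Among the Mrpl names the highest means were those of Mrpl12 (137), Mrpl54 (112), Mrpl42 (91.2) and Mrpl52 (85.0). These means count the reads that N9 and N9_ss share in both, and Mrpl12 was first of all members in those libraries alone. Stalk protein Mrpl12 is unusual in being present in several copies per ribosome. Across the 77 genes the log2 levels of the library types correlated with Pearson r = 0.939 at day 0 and 0.912 at day 7, a description over genes that share gene models and lengths. Mrps6 was at 178 and 346 RPKM in the standard libraries, at 239 and 264 in TELP N9, at 264 in N9_ss and at 49.4 in T18, with differences of 0.95 and 0.15. In RefSeq it overlaps Slc5a3, an inositol transporter gene, at 27.8 and 77.1 RPKM in the standard libraries of day 0 and day 7 and at 31.8 and 23.4 in TELP N9. Strand handling is not stated, so reads of such pairs may not be told apart and the level of Mrps6 is uncertain. In all, 19 members overlap another protein-coding gene. Among the 58 others the medians were 0.57 and 1.02, and 10 of the 12 called by both methods were among them.

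The differences between days were larger in TELP N9 than in the standard libraries for 58 of 77 members. The TELP N9 difference exceeded the standard one by a median of 0.34 (SD over the 77 genes 0.43), while over all kept genes the median was -0.27 (SD 1.30). Over the 77 genes the differences by the 2 methods correlated with r = 0.778 (Spearman rho 0.724), and over all 11474 genes with r = 0.642 (rho 0.776). The largest gap was that of Mrpl12 (1.21). Mrps35 followed (1.19), from 16.5 to 26.5 RPKM in the standard and from 11.9 to 45.2 in the TELP N9 libraries. Mrps16 (1.14) went from 40.6 to 48.3 and from 38.0 to 101 RPKM. For Mrps35 TELP N9 gave the lower level at day 0 and the higher at day 7 (-0.44 and 0.75 against standard), while for Mrps16 the methods lay closer at day 0 (-0.09) than at day 7 (1.05). The 5 members with opposite signs by method were all of the large subunit, namely Mrpl14, Mrpl23, Mrpl33, Mrpl48 and Mrpl52, and with median-of-ratios scaling only Mrpl23 and Mrpl52 had opposite signs. With equal totals 9 members had them, among them Mrps6 and Mrps25 of the small subunit, and with quantile normalization 5, among them Mrps6. The large subunit names alone thus had them in the values as deposited but not under every scaling. The share of all genes with opposite signs was not computed.

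**Figure D2:**
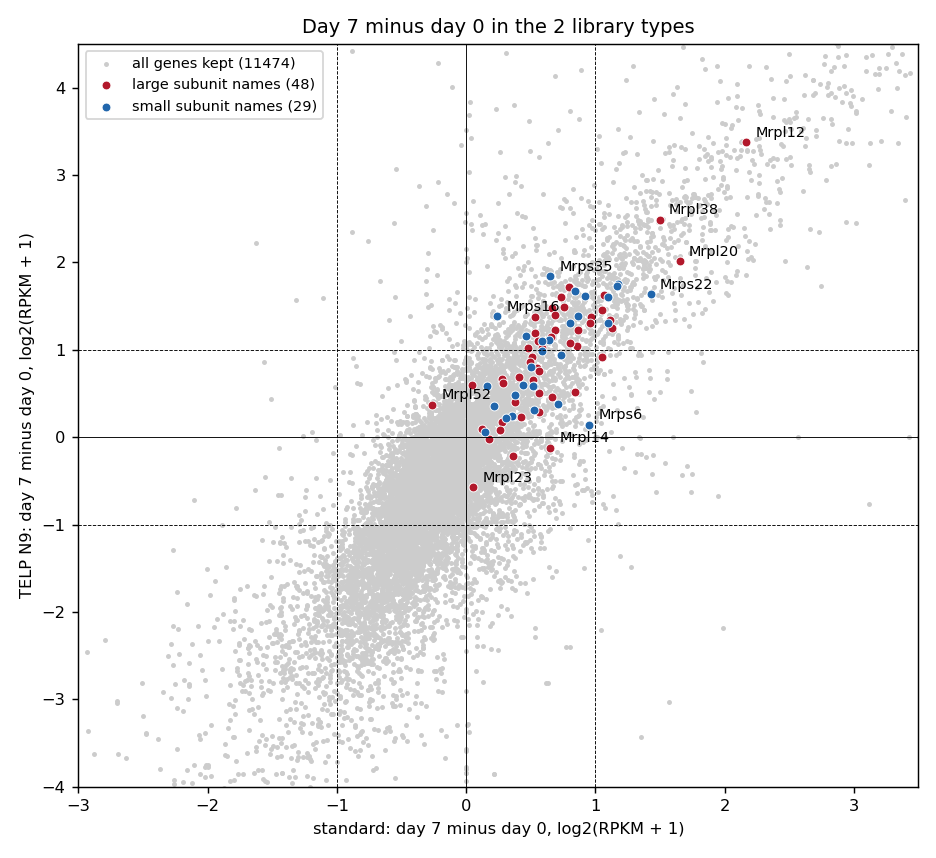
Day 7 minus day 0 on the log2(RPKM + 1) scale in the standard (x axis) and TELP N9 libraries (y axis), with large subunit members in red, small in blue and all 11474 kept genes in grey, of which 393 lie outside the axes. Dashed lines mark the size of a call and 72 of 77 members lie above 0 on both axes, with Mrpl12 at 2.17 and 3.38.

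Set directly against the standard library of the same day, TELP N9 gave the members a median difference of 0.16 at day 0, where that of all genes was 0.00, and of 0.42 at day 7, where that of all genes was -0.25. At day 0 1 member was called higher in TELP N9 (2.05% of all genes were) and 0 lower (0.715%). It was Mrpl14, at 27.5 RPKM by the standard method and 58.7 by TELP N9. At day 7 10 were called higher (7.0% of all genes) and 0 lower (16.7%): Mrpl2, Mrpl4, Mrpl12, Mrpl38, Mrpl53, Mrpl54, Mrpl55, Mrps12, Mrps16 and Mrps28. No member was called at both days, where 0.601% of all genes were called higher and 0.192% lower at both. The count at day 7 moved with the scaling, to 27 with median of ratios and 4 with equal totals. Under these scalings 24% and 28.4% of all genes were called at day 7 in either direction. These comparisons share their libraries with those between days.

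Members were then set beside the other ribosome, the respiratory chain and the rest of the mitochondrial translation system. The 76 cytosolic ribosomal protein genes, which serve translation outside mitochondria, had medians of -0.75 and -1.36, with 0 called higher and 1 lower by both methods, and their medians stayed below 0 under the 3 other scalings. Nuclear genes of the respiratory complexes, whose products join the mitochondrially made subunits, had medians of 1.24 and 1.91. By both methods 50 of 80 were called higher and 0 lower, where 7.23% and 5.81% of all genes were. The median of the mitochondrial ribosomal protein genes lay between those of these groups in both library types and under each of these scalings. Members above the median of all genes by both methods numbered 75 of 77, against 2 of 76 cytosolic and 78 of 80 respiratory genes and 39.8% of all genes.

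**Figure D3:**
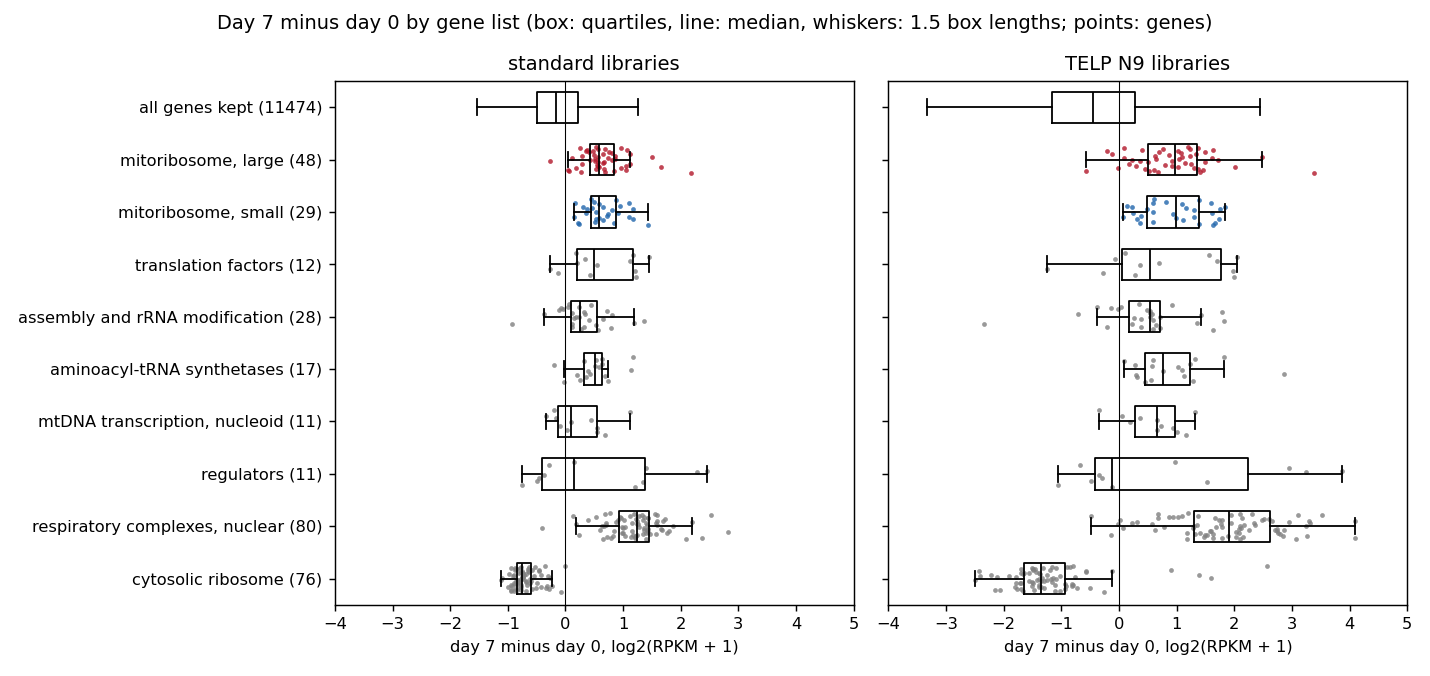
Day 7 minus day 0 on the log2(RPKM + 1) scale by gene list, standard libraries on the left and TELP N9 on the right, with 1 point per gene, boxes from the lower to the upper quartile, a line at the median and whiskers to 1.5 box lengths. Large and small mitochondrial subunits overlap each other and lie between cytosolic ribosomal genes (medians -0.75 and -1.36) and respiratory genes (1.24 and 1.91), while all kept genes are drawn as a box without points.

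Among 12 mitochondrial translation factors 5 (41.7%, against 7.23% of all genes) were called higher by both methods and 0 lower. The medians were 0.49 and 0.53. Taco1, an activator of COX1 translation, went from 5.02 to 15.5 RPKM in the standard and from 5.88 to 27.4 in the TELP N9 libraries (1.46 and 2.05). Tufm, the elongation factor that brings in aminoacyl-tRNA, went from 14.4 to 35.2 and from 19.5 to 80.3 RPKM (1.23 and 1.99). Gfm1, the translocating elongation factor, went from 13.1 to 31.4 and from 9.92 to 42.2 RPKM (1.20 and 1.98). Release factor Mtrf1l had the opposite sign, -0.27 and -1.25, and was not called by both methods. The differences of the 3 named first lay near those of Mrps2 and Mrps18b or above them.

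Of 28 genes for mitoribosome assembly and rRNA modification 2 were called higher by both methods (7.14%, near the 7.23% of all genes) and 0 lower, with medians of 0.26 and 0.53. They were Rnmtl1, a methyltransferase of the large ribosomal RNA (2.21 to 7.28 and 1.92 to 9.30 RPKM), and Rpusd3, a pseudouridine synthase (1.43 to 4.56 and 1.99 to 6.65 RPKM). Mterf4, which guides an rRNA methyltransferase, had the lowest difference, from 108 to 56.3 and from 98.9 to 18.8 RPKM (-0.93 and -2.34). Of 17 mitochondrial aminoacyl-tRNA synthetases, which charge tRNAs, Mars2 and Fars2 were called higher by both methods and 0 lower. This share was 11.8%, against 7.23% of all genes, and the medians were 0.52 and 0.76. Of 6 ribosomal proteins whose symbols do not start with Mrpl or Mrps, 1 (16.7%) was called higher by both methods. It was Ptcd3 of the small subunit (1.01 and 1.18), and the medians of the 6 were 0.42 and 0.36. Of 11 genes for mitochondrial DNA transcription and the nucleoid, 1 (9.09%, against 7.23% of all genes) was called higher by both methods, Tefm, which aids elongation by the mitochondrial RNA polymerase (1.12 and 1.31; medians 0.09 and 0.66).

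Of 11 regulators of nuclear mitochondrial genes 4 (36.4%, against 7.23% of all genes) were called higher by both methods and 0 lower. The medians were 0.14 and -0.12. Coactivator Ppargc1b went from 0.181 to 5.51 RPKM in the standard and from 0.338 to 18.6 in the TELP N9 libraries (2.46 and 3.87). Nrip1 went from 3.63 to 10.7 and from 5.24 to 17.0 RPKM (1.34 and 1.53). Ppara, a fatty acid receptor, went from 0.00991 to 3.91 and from 0.0252 to 8.73 RPKM, and Esrra, an orphan nuclear receptor whose AAGGTCA element was searched above, from 5.31 to 15.7 and from 4.60 to 42.0. The genes for the factors of the other cores were not called by both methods. Nrf1 differed by -0.28 and -0.67, Gabpa by -0.37 and -0.35 and Yy1 by -0.46 and -0.29. Gabpb1, the partner of Gabpa in GABP, went from 10.3 to 5.72 RPKM in the standard and from 11.2 to 4.88 in the TELP N9 libraries (-0.75 and -1.06), past the size of a call in TELP N9 alone.

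Many mitochondrial ribosomal protein genes start head to head with another gene, with both starts in 1 short stretch of DNA. In RefSeq 26 of the 68 members with a promoter (38.2%) had a start on the opposite strand within 1000 bases upstream, allowing an overlap of 250 bases, against 21.7% of the 8463 kept genes. Mrpl46 and Mrps11 form such a pair with each other, with starts 42 bases apart, and the Mrps11 sequence shown above runs into Mrpl46 on the other strand. Mrpl46 went from 5.81 to 13.7 RPKM in the standard and from 4.86 to 13.9 in the TELP N9 libraries (1.12 and 1.34). Mrps11 went from 7.12 to 10.5 and from 6.99 to 13.0 RPKM (0.50 and 0.81). These partners stood at similar levels at day 0 and both were higher at day 7, Mrpl46 by more.

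The other 20 neighbours that passed the minimum of RPKM did not share the members' difference. Their medians were 0.05 by the standard method and -0.27 by TELP N9, where the members paired with such neighbours had 0.66 and 0.97. The member lay above its neighbour in 18 of 20 pairs in the standard and 17 of 20 in the TELP N9 libraries. Mrpl49 and Fau, which encodes a cytosolic ribosomal protein, differed in opposite directions, with Mrpl49 at 0.66 and 0.46 and Fau at -0.60 and -1.55. Mrps7 differed by 0.92 and 1.61 and its neighbour Gga3 by -0.33 and -0.98. In RefSeq Mrps7 also overlaps Gga3, as Mrpl2, Mrpl14, Mrpl18, Mrpl21, Mrpl37 and Mrpl57 overlap their neighbours. The reads of these overlapping pairs may not be told apart, so their differences are uncertain. Ndufb5, a respiratory complex I gene beside Mrpl47, and Ptcd2, a mitochondrial RNA processing gene beside Mrps27, were the 2 neighbours called higher by both methods. Of the 20, 7 were above 0 by both methods and 0 were called lower by both. Among all genes 7.23% were called higher and 5.81% lower by both.

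**Figure D4:**
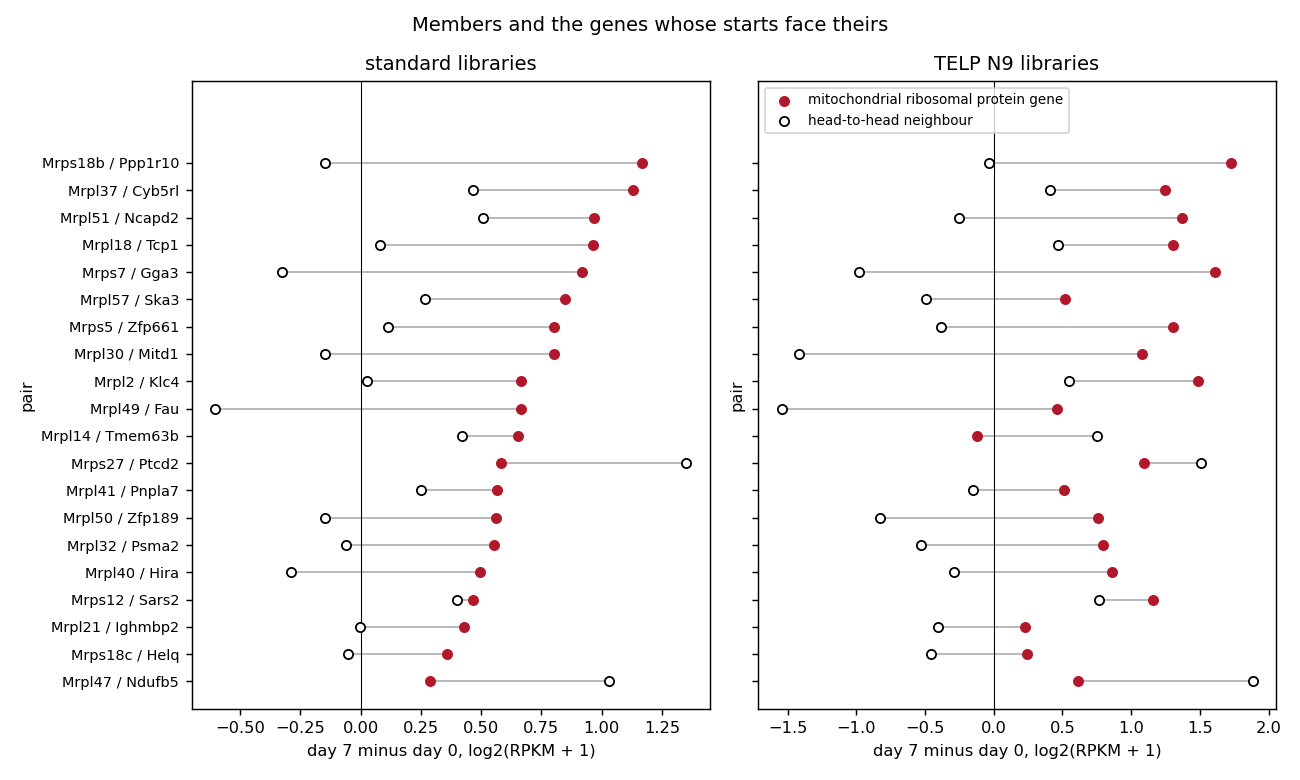
Day 7 minus day 0 on the log2(RPKM + 1) scale for 20 members (red) and their head-to-head neighbours (open), 1 pair per line, standard libraries on the left and TELP N9 on the right. The member lies to the right of its neighbour in 18 and 17 of 20 pairs, and Mrpl47 and Mrps27 lie to the left of theirs in both. Some of these pairs overlap in RefSeq, so their reads may not be told apart.

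At day 7 N9_ss differed from N9 by a median of 0.02 over the members, with 0 of 77 called in either direction (0.0194% and 0.00968% of 10334 genes). The widest gap was that of Mrpl52, at 103 RPKM in N9 and 144 in N9_ss (0.48). The T18 library differed from N9 for nearly all genes. Members had a median of -2.16, and all 9753 genes kept for this pair a median of -1.77. In T18 71 members were called lower, or 92.2% where 83.4% of all genes were, and 0 higher, where 0.841% were. Scaled by the median of ratios, the members' median was -0.14 and that of all genes -0.09, so most of the shift was shared by all genes. The order of levels was also looser, with r = 0.764 over the 77 log2 levels of N9 and T18.

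Mrps18c stood nearest to its N9 level, at 32.9 RPKM in N9 and 28.1 in T18 (-0.22). Mrpl33 was at 80.4 and 67.2 RPKM (-0.26) and Mrpl27 at 13.9 and 10.3 (-0.40). Farthest below were Mrpl12 at 328 and 18.3 RPKM (-4.09), Mrpl38 at 71.6 and 3.48 (-4.02) and Mrps2 at 50.6 and 2.91 (-3.72). These 3 were also among the 6 members with the highest difference between days. Both comparisons use the N9 day 7 library.

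**Figure D5:**
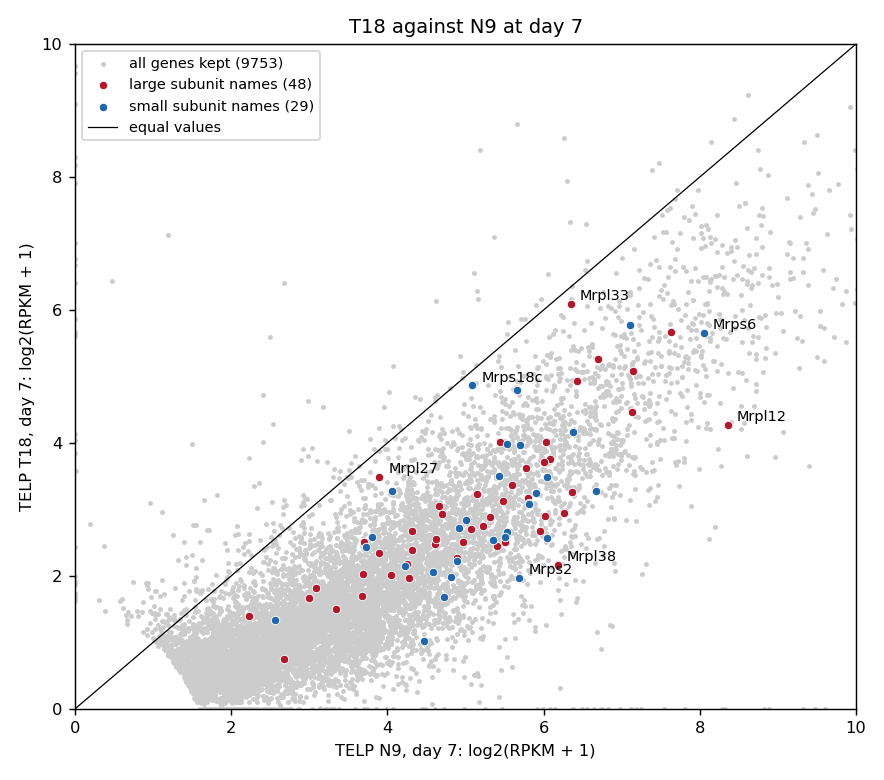
Level at day 7 as log2(RPKM + 1) in TELP N9 (x axis) and TELP T18 (y axis), with large subunit members in red, small in blue, the 9753 genes kept for this pair in grey (66 lie outside the axes) and a line of equal values. All 77 members lie below the line, Mrps18c and Mrpl33 closest to it and Mrpl12, Mrpl38 and Mrps2 far below.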

How the data were processed

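The authors deposited RPKM values per gene, 1 column per RNA library, made with Bowtie2, TopHat and Cufflinks on mm9 per the submitters' processing notes. The sources used here do not give versions, annotation, strand handling or read totals. RPKM depends on the total, so a few abundant genes lower all others. The 17 chromatin immunoprecipitation samples of the 23 were not analysed here.

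Differences of log2(RPKM + 1) were taken between single libraries, over genes that averaged 1 RPKM or more in the libraries compared, and called at an absolute value of 1 (2-fold). Depth was estimated from steps in low values, and whole reads were not recovered per gene, so no count test was run. Calls were also run on simulated data, with planted differences larger than a call and no difference between library types. That simulation does not measure how reliable the calls are in these libraries. limma 3.58.1 (R 4.3.3) and the other alternatives are given in the closing section. Calculations used Python 3.11.15, pandas 2.3.3 and numpy 2.4.6. All 77 symbols matched the gene name table.

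The members and all gene lists were chosen with earlier results of these data known. Named members are the 6 highest and 6 lowest mean differences between days, the 4 highest levels per subunit, the 3 largest differences between library types, the 3 highest and 3 lowest in T18 against N9, the stalk, exit tunnel and decoding centre lists, and up to 3 called genes per pathway list. Others (Mrpl14, Mrpl46, Mrps11, Mrps7, Mrpl49, Mtrf1l, Mterf4, Ppargc1a, Nrip1, Tfam, Lars2, Nrf1, Gabpa, Yy1, Fau, Gga3, Ndufb5, Ptcd2, overlapping genes and members listed beside counts) were named after their values were seen.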

Additional observations from a re-analysis of the deposited data

Results flagged for a closer look

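Opposite signs of the day 7 minus day 0 difference in the standard and TELP N9 libraries drew attention to 5 members. In the values as deposited all were named for the large subunit, while with equal totals or quantile normalization small subunit names were also among such members. With 1 library per group the difference between methods was not tested. Mrpl48, with no counterpart in bacteria, was at 8.69 and 9.96 RPKM in the standard libraries of day 0 and day 7 and at 11.9 and 11.7 in TELP N9, with differences of 0.18 and -0.024. Mrpl23 differed by 0.056 in the standard and -0.57 in TELP N9, and Mrpl33 by 0.36 and -0.21. Mrpl52 differed by -0.26 and 0.37, the reverse order. Mrpl14 was at 27.5 and 43.8 RPKM by the standard method and at 58.7 and 53.9 by TELP N9, with differences of 0.65 and -0.12, and it overlaps Tmem63b in RefSeq, as Mrpl48 overlaps Rab6a. None of the 5 passed the size of a call by either method.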

How the results depend on the processing

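Of 108 recomputed values 75 kept their direction and size, within 0.1 for medians and 1.5 times for counts. Every group holds 1 library and depths are approximate, so no spread between cultures is known. No paired analysis was possible because every RNA group holds 1 library, so that no replicate numbers pair samples. The days were matched only within library type, which limma took as its block.

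Median-of-ratios scaling gave median day differences of 0.74 (standard) and 1.503 (TELP N9). For day 7 TELP N9 minus standard it gave a median of 0.76 with 27 called, where 24% of all genes were. Its T18 minus N9 median was -0.14. Equal totals gave 0.84 for TELP N9, -0.015 for N9_ss minus N9 and -0.96 for T18 minus N9. For TELP N9 minus standard at day 0 and day 7 they gave 0.060 and 0.15, with 0 and 4 called. Of all genes 2.52% and 28.4% were called there. Quantile normalization gave day differences of 0.71 and 1.12, a large minus small median of -0.12 in TELP N9, -0.011 for N9_ss minus N9 and -0.035 for T18 minus N9. A pseudocount of 0.1 RPKM gave -2.33 for T18 minus N9. The large minus small median, -0.01 standard and -0.02 TELP N9, became 0.0031 with that pseudocount (standard), 0.029 and 0.035 with a minimum of 5 RPKM, and 0.028 and 0.060 with Mrps30 and Mrps18a counted as large and Mrps36 left out. Calls at 1.5-fold numbered 38 (standard, 14.2% of all genes) and 33 (both methods, 11.7%), and 13 and 32 for TELP N9 against standard at day 0 (7.5%) and day 7 (46.9%). With T18 in place of N9, 0 members were called higher in TELP (2.53% of all genes) and 0 by both methods (1.77%). The TELP median was -1.17, where that of all genes was -2.06. Day 7 TELP minus standard was -1.74 with 66 called, where all genes had -1.89 and 86.4% were called. The causes were not tested. limma with library type as a block is a single fit over both library types, and 0 members passed it as higher and 0 as lower.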

Other observations

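Lars2, the mitochondrial leucyl-tRNA synthetase, stood apart from the other synthetases by library. It was at 15.9 and 21.6 RPKM in the standard libraries of day 0 and day 7, at 31.8 and 239 in TELP N9, at 229 in N9_ss and at 26494 in T18. T18 minus N9 was 6.79 for Lars2, while no mitochondrial ribosomal protein gene was above 0 in that comparison. How reads that match several places were counted is not given, so the level of Lars2 is uncertain and its cause was not tested.

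Ppargc1a, the coactivator best known from brown fat, differed between the methods. It was at 0.787 and 3.13 RPKM by the standard method and at 0.939 and 0.783 by TELP N9, with differences of 1.21 and -0.12, while its relative Ppargc1b was called higher by both. Tfam, which packages mitochondrial DNA, was at 9.54 and 8.44 RPKM by the standard method and at 8.51 and 11.2 by TELP N9 (-0.16 and 0.36). The difference between methods was not tested.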
